A study of Canis lupus familiaris with 4 samples.

Results

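Genes of macrophages and dendritic cells were followed in 4 RNA-seq libraries from female dogs with mammary ductal carcinoma. They were chosen by gene name, 10 in number, and all 10 (CD163, MRC1, VSIG4, MSR1, CSF1R, C1QA, C1QB, C1QC, ITGAX and CD86) were among the 11277 genes of the count tables. The libraries T1 and T2 were made from carcinoma, and C1 and C2 from adjacent non-tumor mammary tissue (the control). Each library pooled the RNA of 3 of 6 intact female dogs of different breeds, aged 5 to 14 years, with naturally occurring early-stage disease and no experimental treatment. The paper describes C1 and T1 as taken from the same dogs (pool 1), and likewise C2 and T2 (pool 2), so an n of 2 counts pools and the spread between single dogs is not seen.

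Macrophages are resident phagocytes that clear dead cells, debris and microbes. They depend on signals through the receptor encoded by CSF1R, and they recognize their cargo with scavenger receptors and with complement. Dendritic cells take up antigen and present it to T cells, for which they need costimulatory ligands such as CD86. In the mammary gland macrophages lie around the ducts and in the stroma, and they are among the most common leukocytes of mammary tumors.

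The total count was 32352002 and 35496260 in C1 and T1 but 4027367 and 3236218 in C2 and T2, so pool 2 had the lower depth. Every member had counts in every library, from 53 (VSIG4 in T2) to 7565 (MRC1 in C1). Levels are given as CPM, read counts scaled to a common library total after TMM, which balances the libraries over all genes. Tissues were compared with edgeR (quasi-likelihood test) over all genes. A gene is called higher or lower when its Benjamini-Hochberg adjusted p is under 0.05 and its log2 fold change is 1 or more in size. The test does not use the pairing of the pools. The epithelial genes EPCAM (147 to 252 CPM) and KRT19 (167 to 351 CPM) had counts in all 4 libraries. So did the leukocyte genes PTPRC (107 to 251 CPM), SPI1 and TYROBP. CD68 and CD14 had no entry under these names among the genes measured. The gene lists used below were measured in part, from 3 of 14 genes (B and plasma cells) to 9 of 10 (fibroblasts). For other monocyte and macrophage genes it was 26 of 42, and for dendritic cell and antigen presentation genes 15 of 37. Striated muscle genes differed between the tissues, with 12 of 13 measured genes lower in carcinoma and summed levels of 2089 and 3263 CPM in control against 50.8 and 79.7 CPM in carcinoma.

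Of the 10 genes, ITGAX, VSIG4 and MRC1 fell in carcinoma, none rose (0 at an unadjusted p under 0.05 in edgeR, and 0 by DESeq2, where 5.08% of all genes were called higher), and the other 7 failed a criterion. Among all genes tested, 5.24% were called lower and 4.62% higher. The same 3 genes were called lower by DESeq2, beside 5.61% of all genes, and in edgeR with the pool as a replicate block, beside 6.83%. CD163 was also lower by the adjusted p, but its fold change lay under the threshold. CSF1R, MSR1, CD86 and the 3 C1q chains had fold changes nearer to 0. The median log2 fold change of the 10 genes was −0.30, beside 0.031 over all genes. For ITGAX, VSIG4, MRC1 and CD163 both carcinoma libraries lay below both controls, and for the other 6 the libraries of the tissues overlapped. Over all genes, 28.0% had both carcinoma libraries below both controls and 29.6% above. These are bulk tissues, in which fewer cells of a type and less RNA per cell cannot be told apart.

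**Figure D1:**
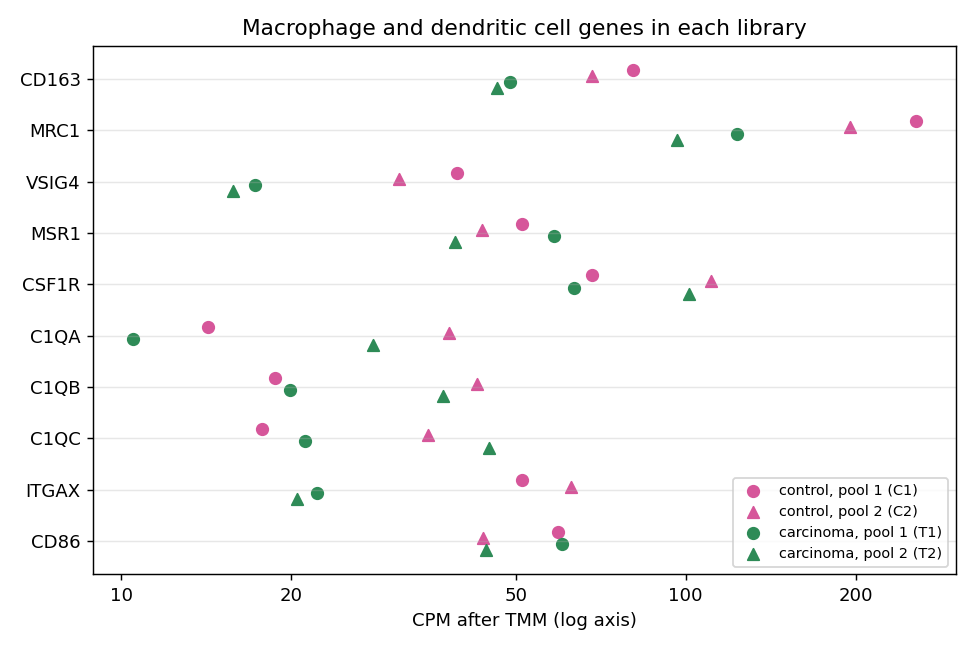
Level of each of the 10 genes in each library, as CPM after TMM on a log axis, with 1 symbol per library (pink for control, green for carcinoma, with pool 1 as circles and pool 2 as triangles). For ITGAX the controls lie at 51.3 and 62.6 CPM and the carcinomas at 22.2 and 20.5 CPM, while the C1q chains separate by pool.

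CD163, MRC1, VSIG4 and MSR1 encode receptors with which macrophages bind and take up material. MRC1, the mannose receptor, binds sugars on microbes and on the body's own glycoproteins. It was 256 and 196 CPM in C1 and C2, and 123 and 96.4 CPM in T1 and T2, so that each carcinoma library held less than either control. MRC1 had a fold change of −1.03 on the log2 scale (standard error, SE, 0.20, 95% interval −1.54 to −0.53, adjusted p = 0.0300 by edgeR). Within pool 1 the log2 ratio of carcinoma to control was −1.05, and within pool 2 it was −1.02. Without C1 the call was lost (log2 fold change −0.87, adjusted p = 0.0614 by edgeR), and without T2 the fold change lay under the threshold (−0.87, adjusted p = 0.0409). MRC1 is also a gene of lymphatic endothelium, of whose list 5 of 7 measured genes fell, with summed levels of 1152 and 956 CPM in control and 211 and 202 CPM in carcinoma. The part of lymphatic endothelium in the fall of MRC1 was not tested.

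VSIG4 encodes a complement receptor of tissue-resident macrophages that binds fragments of C3. It was 39.4 and 31.1 CPM in C1 and C2, and 17.3 and 15.8 CPM in T1 and T2. The carcinoma libraries were close to each other and below both controls. This was a log2 fold change of −1.09 (SE 0.21, 95% interval −1.64 to −0.55, adjusted p = 0.0324 by edgeR). The call was lost without C1 (adjusted p = 0.178 by edgeR), without T1 (adjusted p = 0.0875) and without T2 (adjusted p = 0.0876), at log2 fold changes from −1.21 to −0.95, and held without C2 (−1.25, adjusted p = 0.0407). T2 had 53 counts of the gene. In RefSeq (assembly UU_Cfam_GSD_1.0) the microRNA gene MIR223 lies within the span of VSIG4, and the length in the tables was 0.644 of that span, so the 2 annotations differ for this gene.

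CD163, the receptor with which macrophages clear complexes of hemoglobin and haptoglobin, was 80.7 and 68.2 CPM in C1 and C2, and 48.8 and 46.4 CPM in T1 and T2. The groups did not overlap. Its log2 fold change was −0.65 (SE 0.14, 95% interval −1.01 to −0.29, adjusted p = 0.0441 by edgeR), under the fold asked for a call. At any fold, 6.96% of all genes were lower by the adjusted p. The adjusted p was above 0.05 without C1, T1 or T2 (0.119 to 0.221) and 0.0476 without C2.

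MSR1, a class A scavenger receptor that takes up modified lipoproteins, was 51.3 and 43.6 CPM in C1 and C2, and 58.5 and 39.0 CPM in T1 and T2. The highest and the lowest value both came from carcinoma. On the log2 scale the fold change was 0.052 (SE 0.23, 95% interval −0.55 to 0.65, adjusted p = 0.906 by edgeR). The interval leaves out a change of 2-fold in either direction, that is a log2 fold change of 1.

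**Figure D2:**
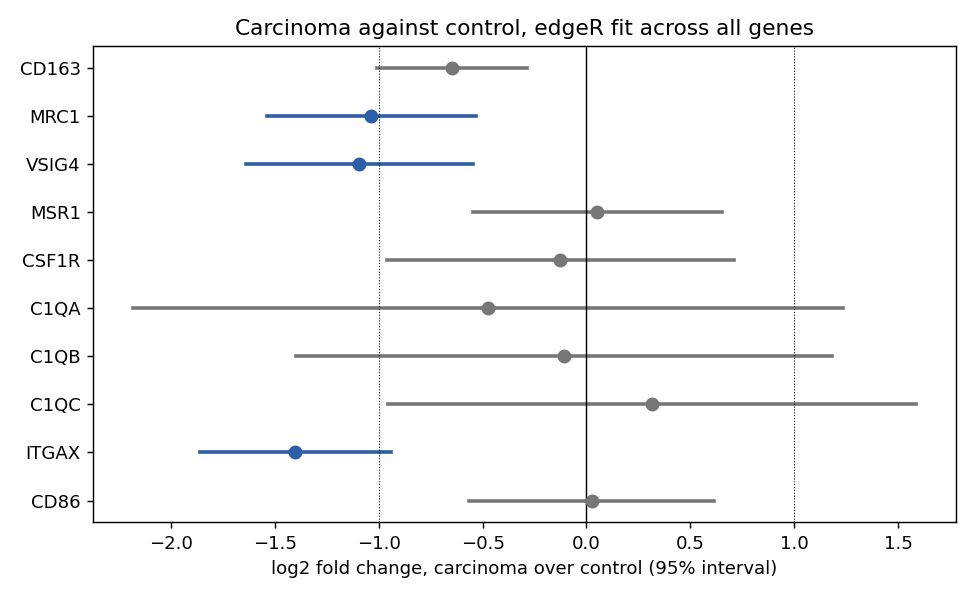
Fold change (log2, carcinoma over control) of each of the 10 genes, with its 95% interval from the edgeR fit as a bar and the call threshold of 1 as dotted lines. ITGAX (−1.40), VSIG4 (−1.09) and MRC1 (−1.03), in blue, are the genes called lower, and the widest interval is that of C1QA (−2.18 to 1.23).

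As the receptors are counted in the same libraries, their ratios do not depend on the scaling. MRC1 took 83.3% of the summed counts of MRC1 and MSR1 in C1 (95% Wilson interval 82.5 to 84.1) and 81.8% in C2 (79.3 to 84.0), against 67.9% in T1 (66.7 to 69.0) and 71.2% in T2 (66.9 to 75.2). CD163 took 61.1% of its sum with MSR1 in C1 (59.6 to 62.6) and 61.0% in C2 (56.6 to 65.2), against 45.5% in T1 (43.9 to 47.1) and 54.4% in T2 (48.6 to 60.0). In both pairs the share of MSR1 was larger in carcinoma than in control in each pool, but for CD163 and MSR1 the intervals of pool 2 overlapped. These pairs, like those of ITGAX and C1q described further on, were chosen after the values had been seen, and the intervals cover counting error only.

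CSF1R encodes the receptor for the growth factors CSF1 and IL-34, on which the survival of macrophages depends. It was 68.2 and 111 CPM in C1 and C2, and 63.3 and 101 CPM in T1 and T2. Both pool 2 libraries lay above both pool 1 libraries, whatever the tissue. Its log2 fold change was −0.13 (SE 0.33, 95% interval −0.96 to 0.71, adjusted p = 0.831 by edgeR). Of its ligands, CSF1 was at 13.7 and 20.4 CPM in C1 and C2, and 13.4 and 20.8 CPM in T1 and T2, with a log2 fold change of −0.0082 (SE 0.34, adjusted p = 0.992 by edgeR).

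IL34, the gene of the other ligand, was 54.6 and 73.7 CPM in C1 and C2, and 114 and 141 CPM in T1 and T2. Both carcinoma libraries lay above both controls. The log2 fold change was 0.998 (SE 0.20, adjusted p = 0.0330 by edgeR), just under the threshold. Among the settings that kept all libraries, the gene passed only in edgeR with the pool as a replicate block (1.02). In the others its log2 fold change lay under the threshold, from 0.977 (DESeq2) to 0.998 (no filter on low counts). Leaving out a library gave 0.73 (without C1), 1.22 (without C2), 1.10 (without T1) and 0.85 (without T2). SPI1, which encodes the myeloid transcription factor PU.1, had a log2 fold change of −0.18 (SE 0.31, adjusted p = 0.746 by edgeR). On the list of CSF1R ligands, cytokine receptors and myeloid transcription factors, 1 of 12 measured genes was higher (RUNX1) and 1 was lower (NR1H3). The other 10 did not pass, and the median log2 fold change was −0.092. Among those 10, ZEB2 was past the adjusted p in the direction opposite to IL34. Its log2 fold change was −0.999 (SE 0.19, adjusted p = 0.0308 by edgeR), also just under the threshold. NR1H3 had a log2 fold change of −1.53 (SE 0.33, adjusted p = 0.0421 by edgeR). RUNX1, a transcription factor gene also used outside blood cells, had a log2 fold change of 2.00 (SE 0.12, adjusted p = 0.00195 by edgeR).

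C1QA, C1QB and C1QC encode the A, B and C chains that assemble into C1q, the recognition molecule of the classical complement pathway, which macrophages and dendritic cells make. C1QA was 14.3 and 38.0 CPM in C1 and C2, and 10.5 and 28.0 CPM in T1 and T2. C1QB was 18.8 and 42.7 CPM in C1 and C2, and 19.9 and 37.2 CPM in T1 and T2. C1QC was 17.8 and 35.0 CPM in C1 and C2, and 21.1 and 44.9 CPM in T1 and T2.

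For each of the C1q chains both pool 2 libraries lay above both pool 1 libraries, and the tissues overlapped. The log2 fold changes were −0.48 for C1QA (SE 0.67, 95% interval −2.18 to 1.23), −0.11 for C1QB (0.50, −1.40 to 1.18) and 0.32 for C1QC (0.50, −0.95 to 1.59), with adjusted p-values of 0.682, 0.909 and 0.715 by edgeR. This fit counts the offset between the pools as spread, and its intervals reach past a 2-fold change for each chain. With the pool as a replicate block in edgeR the log2 fold changes were −0.44 for C1QA (SE 0.12, 95% interval −0.69 to −0.20), −0.0013 for C1QB (0.11, −0.22 to 0.21) and 0.28 for C1QC (0.11, 0.070 to 0.50). With the block in DESeq2 the intervals were −0.89 to −0.038, −0.44 to 0.33 and −0.096 to 0.65. The intervals of both blocked fits leave out a 2-fold change of each chain. With 1 residual degree of freedom, their width rests mostly on dispersion shared across genes. They do not measure the spread of the chains between dogs. The summed level of the chains was 50.8 CPM in C1 and 51.5 in T1, and 116 CPM in C2 and 110 in T2. Within each pool the sums of control and carcinoma thus differed less than the pools did.

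The offset of pool 2 over pool 1 in log2 CPM was 1.41 for C1QA in control and 1.41 in carcinoma. It was 1.18 and 0.89 for C1QB, 0.97 and 1.08 for C1QC, and 0.70 and 0.68 for CSF1R. These 4 of the 10 genes were higher in pool 2 in both tissues, as were 37.5% of all genes. An offset of at least 1 in both tissues was found for 1 of the 10 genes, C1QA, and for 3.64% of all genes. CD163, MRC1, VSIG4, MSR1 and CD86 were lower in pool 2 in both tissues, by 0.072 to 0.58. The share of all genes lower in pool 2 in both tissues was not computed. ITGAX was higher in pool 2 in control and lower in carcinoma.

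The C1q genes are the shortest of the 10, with lengths of 2468 to 6298 bases in the tables, and pool 2 held its libraries at lower depth. Over the 2210 genes shorter than 10 kb the median offset of pool 2 was 0.16, and over the 9067 longer genes it was −0.053. The part of gene length, depth and the dogs themselves in the offset of C1q was not tested, and depth and dogs cannot be told apart in this design.

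**Figure D3:**
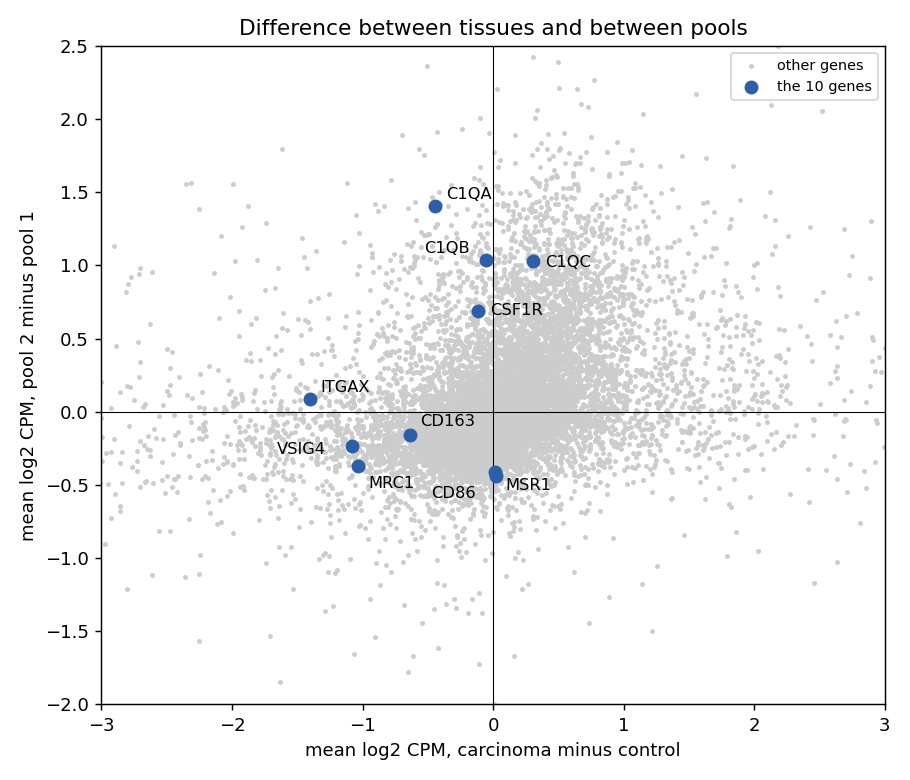
Difference between the tissues (x axis, mean log2 CPM of carcinoma minus control) against the difference between the pools (y axis, mean log2 CPM of pool 2 minus pool 1), with the 10 genes in blue and other genes in gray (genes beyond the axes are not drawn). ITGAX, VSIG4, MRC1 and CD163 lie to the left, with pool differences from −0.37 (MRC1) to 0.086 (ITGAX), the C1q chains and CSF1R lie high, and MSR1 and CD86 lie below the center (−0.41 and −0.44).

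The chains of C1q did not keep 1 ratio. C1QC took 55.5% of the summed counts of C1QC and C1QA in C1 (95% Wilson interval 52.3 to 58.6) and 47.9% in C2 (42.5 to 53.4). In carcinoma it took 66.8% in T1 (64.0 to 69.6) and 61.6% in T2 (55.4 to 67.5). The share was higher in carcinoma in each pool, and the intervals of control and carcinoma of the same pool did not overlap. Between C1QC and C1QB the shares of C1QC were 48.7% and 45.1% in C1 and C2, and 51.4% and 54.7% in T1 and T2, with overlapping intervals within each pool. In RefSeq the genes lie side by side in the order C1QB, C1QC and C1QA, with a long noncoding RNA gene overlapping C1QC and C1QA, and the strand setting of the counting is not stated, so reads of that gene may be among the counts.

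Of the list of C1q partners and receptors, none of 9 measured genes was called (edgeR, with C1R past the adjusted p, and 0 called by DESeq2), and the median log2 fold change was 0.24. C1R, a protease that C1q carries, was 84.0 and 80.4 CPM in C1 and C2, and 162 and 148 CPM in T1 and T2, a log2 fold change of 0.91 (SE 0.11, adjusted p = 0.00848 by edgeR) that lay under the threshold. C1S, the second protease, had a log2 fold change of 0.24 (SE 0.12, adjusted p = 0.270 by edgeR). Both proteases are also made by fibroblasts and epithelium.

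ITGAX encodes the integrin chain CD11c, which pairs with the beta 2 chain on dendritic cells and on many macrophages. It was 51.3 and 62.6 CPM in C1 and C2, and 22.2 and 20.5 CPM in T1 and T2. The carcinoma libraries lay together, far below both controls. The log2 fold change of −1.40 (SE 0.18, 95% interval −1.86 to −0.94, adjusted p = 0.00952 by edgeR) had the largest size among the 10 genes, and the call held without each of the libraries (adjusted p from 0.00990 to 0.0252). The log2 ratio of carcinoma to control was −1.21 in pool 1 (95% counting interval −1.33 to −1.08) and −1.61 in pool 2 (−1.99 to −1.23).

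ITGAM, which lies beside ITGAX in RefSeq and encodes the related chain CD11b, was 16.7 and 16.5 CPM in C1 and C2, and 14.1 and 12.8 CPM in T1 and T2, a log2 fold change of −0.29 (SE 0.22, adjusted p = 0.436 by edgeR). ITGAX took 75.5% of the summed counts of ITGAX and ITGAM in C1 (95% Wilson interval 73.6 to 77.3) and 79.2% in C2 (74.6 to 83.2). In T1 it took 61.2% (58.4 to 63.8) and in T2 61.6% (52.4 to 70.1). The shares in carcinoma lay below those in control in each pool, and their intervals did not overlap.

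CD86, the ligand of the T cell receptors CD28 and CTLA-4, was 59.3 and 43.8 CPM in C1 and C2, and 60.3 and 44.3 CPM in T1 and T2. Within each pool control and carcinoma were nearly equal. This was a log2 fold change of 0.025 (SE 0.23, 95% interval −0.56 to 0.61, adjusted p = 0.958 by edgeR), an interval that leaves out a 2-fold change. CD80, the related ligand, had a log2 fold change of 0.15 (SE 0.23, adjusted p = 0.703 by edgeR), and CD86 took 67.1% to 70.7% of their summed counts in the 4 libraries.

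Of the list of CD86 and ITGAX partners, 3 of 8 measured genes fell, none rose and 5 did not pass, with a median log2 fold change of −0.69. CD28, the receptor of CD86 on T cells, was 5.59 and 6.49 CPM in C1 and C2, and 2.38 and 1.78 CPM in T1 and T2, a log2 fold change of −1.44 (SE 0.32, adjusted p = 0.0475 by edgeR). The others were PDCD1LG2, which encodes a ligand of the inhibitory receptor PD-1, and ICAM2, an adhesion molecule of endothelium and leukocytes. PDCD1LG2 had a log2 fold change of −1.39 (SE 0.22, adjusted p = 0.0186 by edgeR), and ICAM2 one of −1.66 (SE 0.32, adjusted p = 0.0315). Counts in T2 were low, with 6 for CD28, 10 for ICAM2 and 36 for PDCD1LG2. Without C1 0 of these genes were called, and without C2, T1 or T2 1 was.

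None of the 6 measured pan-leukocyte genes was called (edgeR, with PTPRC past the adjusted p at a log2 fold change of −0.90, and 0 by DESeq2). Their median log2 fold change was −0.86, and their mean log2 CPM was 5.43 and 5.46 in C1 and C2, and 4.77 and 4.65 in T1 and T2. The 10 genes were therefore also set against this mean within each library, as a description with no test.

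Relative to the pan-leukocyte genes, ITGAX and VSIG4 were lower in both carcinoma libraries than in both controls. The difference was −0.67 in log2 units for ITGAX (SD between pools 0.13, n = 2 in each tissue) and −0.35 for VSIG4 (SD 0.19). MSR1 and CD86 were higher in both carcinoma libraries, by 0.75 each (SD 0.27 and 0.28). The reference mean itself fell in carcinoma, so a gene of unchanged CPM is higher on this scale. In CPM, MSR1 and CD86 had log2 fold changes of only 0.052 and 0.025. The share of all genes lower or higher on this scale was not computed. For the other 6 the tissues overlapped on this scale. CD163 differed by 0.094 and MRC1 by −0.30, while CSF1R differed by 0.62, C1QA by 0.29, C1QB by 0.68 and C1QC by 1.04, each of these 4 higher in carcinoma within both pools.

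**Figure D4:**
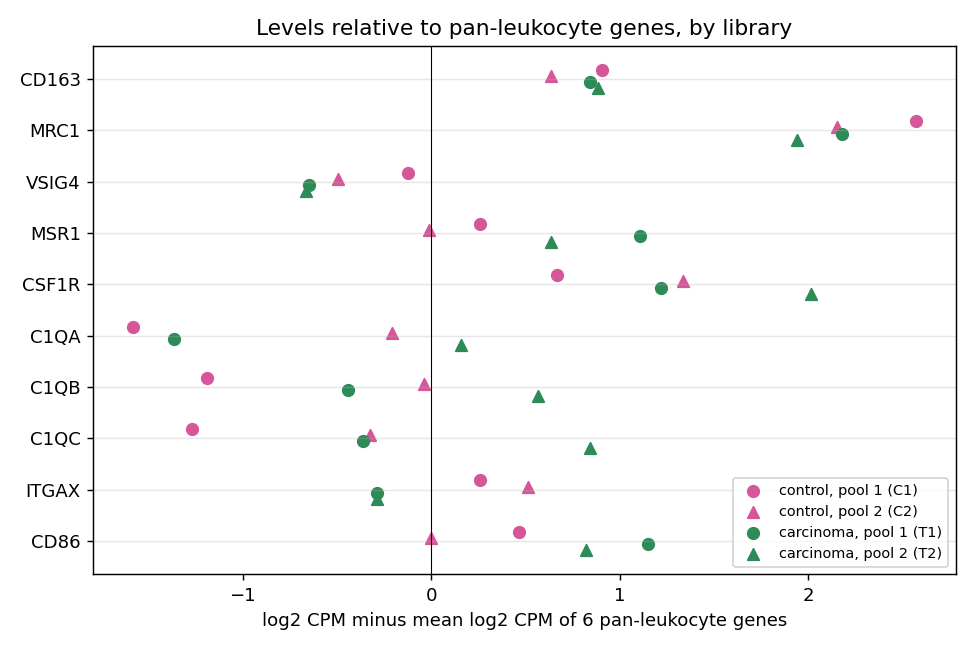
Log2 CPM of each of the 10 genes minus the mean log2 CPM of 6 pan-leukocyte genes in the same library, with 1 symbol per library (pink for control, green for carcinoma, with pool 1 as circles and pool 2 as triangles). ITGAX is lower in both carcinoma libraries and MSR1 and CD86 are higher in both, while the C1q chains are split by pool. The reference mean itself is lower in carcinoma, so a gene of unchanged CPM lies higher there.

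Among other monocyte and macrophage genes, 6 of 26 measured genes fell, none rose (edgeR, with TGFBI past the adjusted p at a log2 fold change of 0.98, and 0 by DESeq2) and 20 failed a criterion. The median log2 fold change was −0.61. TLR4 was past the adjusted p but under the threshold, with a log2 fold change of −0.87 (SE 0.18, adjusted p = 0.0363 by edgeR). Of the genes that fell, those with the smallest adjusted p were CYBB, F13A1, GPNMB and LYVE1. CYBB, the membrane subunit of the phagocyte NADPH oxidase, was 139 and 117 CPM in C1 and C2, and 40.9 and 39.9 CPM in T1 and T2, a log2 fold change of −1.66 (SE 0.13, adjusted p = 0.00339 by edgeR).

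F13A1, which encodes the A subunit of coagulation factor XIII and is made by resident macrophages, had a log2 fold change of −1.92 (SE 0.16, adjusted p = 0.00339 by edgeR). GPNMB, a glycoprotein gene of lipid-laden macrophages and of other cells, had one of −1.95 (SE 0.16, adjusted p = 0.00349). LYVE1, a hyaluronan receptor gene, is on the macrophage and the lymphatic endothelium lists, and its log2 fold change was −2.98 (SE 0.29, adjusted p = 0.00496).

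Of the other scavenger receptors and genes of heme handling, 2 of 13 measured genes rose, 3 fell and 8 did not pass, with a median log2 fold change of −0.28. CD36, a fatty acid and lipoprotein receptor of macrophages, adipocytes and endothelium, was 150 and 136 CPM in C1 and C2, and 29.9 and 24.4 CPM in T1 and T2, a log2 fold change of −2.37 (SE 0.15, adjusted p = 0.00209 by edgeR). SCARA5, a ferritin receptor of stromal cells, had a log2 fold change of −1.25 (SE 0.14, adjusted p = 0.00645 by edgeR). SCARA3 and COLEC12, relatives of MSR1 that are not restricted to macrophages, rose, with log2 fold changes of 1.12 (SE 0.16, adjusted p = 0.0129) and 1.21 (SE 0.18, adjusted p = 0.0140). The third gene that fell was OLR1, and without C1 or T2 1 gene of the list was higher.

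Of dendritic cell and antigen presentation genes, 2 of 15 measured genes fell and 13 did not pass, with a median log2 fold change of −0.68. Those that fell encode chains of MHC class II, which presents peptides to CD4 T cells. The gene named HLA-DRA in the tables was 447 and 431 CPM in C1 and C2, and 176 and 165 CPM in T1 and T2, a log2 fold change of −1.36 (SE 0.11, adjusted p = 0.00339 by edgeR). DLA-DQA1 had a log2 fold change of −1.74 (SE 0.15, adjusted p = 0.00358 by edgeR). CD74, the invariant chain, had one of −0.81 (SE 0.20, adjusted p = 0.0657 by edgeR). DLA-DQB1 and TCF4 were past the adjusted p but under the threshold. Their log2 fold changes were −0.90 (SE 0.16, adjusted p = 0.0255 by edgeR) and −0.68 (SE 0.15, adjusted p = 0.0469). Reads of MHC class II genes may be shared among related copies, so the values of single genes are uncertain.

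**Figure D5:**
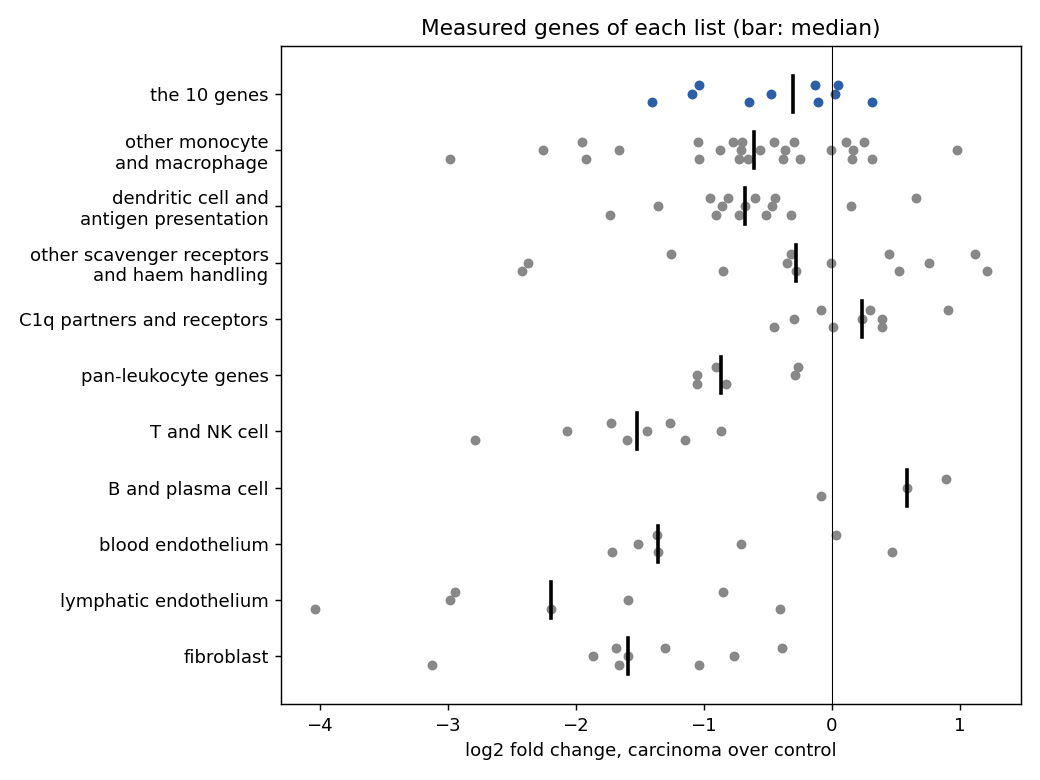
Measured genes of 11 lists by their log2 fold change (carcinoma over control), with 1 point per gene and a bar at the median (points are spread vertically for display). The 10 genes have a median of −0.30 and range from −1.40 to 0.32, and the lowest median shown is that of lymphatic endothelium (−2.19).

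Genes of other cell types also differed between the tissues. Of T and NK cell genes 4 of 8 fell (median log2 fold change −1.52), with GZMK and CD8A at the smallest adjusted p, and their summed level was 70.8 and 63.1 CPM in control and 23.6 and 22.0 in carcinoma. Of blood endothelium genes 4 of 7 fell, among them PECAM1 and CDH5, with summed levels of 696 and 713 CPM in control and 325 and 327 in carcinoma. Of fibroblast genes 5 of 9 fell, led by DCN, with summed levels of 7474 and 8379 CPM in control and 2811 and 3646 in carcinoma.

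Of mast cell genes 3 of 4 fell, CPA3 and MS4A2 among them (summed levels 165 and 145 CPM in control and 134 and 136 in carcinoma, mostly KIT, the gene that did not pass). Of luminal epithelium genes 2 of 8 fell, ESR1 and ELF5 (1681 and 1565 CPM in control, 1219 and 1301 in carcinoma), and of milk secretion genes 6 of 7 fell and LTF rose. On the neutrophil list 4 of 5 genes rose, with S100A9 and LTF at the smallest adjusted p, although epithelium makes these proteins too, and LCN2 fell. The summed level of the neutrophil list was 372 and 520 CPM in control and 3095 and 3951 in carcinoma, nearly all of it LTF (355 and 503, and 2977 and 3840 CPM), which is also on the milk secretion list. Among 3 genes of B and plasma cells, 5 of adipocytes and 11 of proliferation the smallest adjusted p-values by edgeR were 0.105 (POU2AF1), 0.0677 (PPARG) and 0.102 (PLK1), so none was called.

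The part of these cell types in the values of the 10 genes was not tested. The 13 striated muscle and 7 milk secretion genes of the lists were also left out before the libraries were scaled. ITGAX, VSIG4 and MRC1 were still the members called, with log2 fold changes of −1.40, −1.09 and −1.04. Other muscle genes stayed in, so this concerns the scaling and does not test the part of cell types.

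Levels can be compared between the genes only per length. By CPM per kilobase of the length in the tables, which lies near the gene span with introns and so lowers the value of long genes, C1QA stood highest in control (10.6), followed by C1QC (5.30) and C1QB (4.88), CSF1R (3.05), MRC1 (2.49), CD163 (2.39) and ITGAX (1.94). VSIG4 (0.912), CD86 (0.813) and MSR1 (0.620) stood lowest. In carcinoma MRC1 (1.21) stood below CD163 (1.53), ITGAX stood at 0.728 and VSIG4 (0.427) was the lowest. The order C1QA, C1QC, C1QB was the same in C1 (5.78, 3.57 and 2.98 CPM per kilobase) and in C2 (15.4, 7.03 and 6.77), although C1QC and C1QB lay close in C2. In T1 C1QA and C1QC were equal at 4.24 CPM per kilobase.

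The 5 other genes whose pattern over the 4 libraries was most like the mean of the 10 were C3, SGPL1, FGFR2, MTSS1 and a gene named ENSCAFG00000017309 in the tables. Likeness was measured as the root mean square difference of centered log2 CPM, which was 0.00960 for C3, 0.0308 for SGPL1, 0.0311 for FGFR2, 0.0337 for ENSCAFG00000017309 and 0.0346 for MTSS1, among 9010 genes with a mean of at least 10 CPM. The members themselves lay farther from their own mean, from 0.239 for CD163 to 0.572 for C1QA. The mean pattern is thus that of no single member.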

How the data were processed

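Total RNA (TruSeq Stranded) of 2 carcinoma and 2 control pools was sequenced. The authors deposited whole-number counts per gene, not normalized, with a gene length (unit other), used only for CPM per kilobase. For mapping and counting the paper gives TopHat2 and HTSeq, whereas the processing notes list STAR and featureCounts. Genome build and strand setting: not given in the sources, so no coordinates or sequences are printed.

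All 11277 genes passed filterByExpr and were tested with edgeR 4.0.16 in R 4.3.3 (TMM, quasi-likelihood F test, Benjamini-Hochberg). Each SE is the size of the log2 fold change over the root of F. With 2 libraries a group, an exact permutation test of a single value cannot pass, so calls rest on the model across genes. Log2 CPM used a prior count of 2. Counts of 11277 genes were simulated with the same dispersion for every gene and no offset between pools. On them edgeR called 44% of genes changed 2-fold, the threshold itself, and 100% of those changed 4-fold. The real libraries had offsets between pools, so these shares do not give the power in them. Alternatives were DESeq2 1.42.0, its size factors, filters, a replicate block, removal of muscle and milk genes, and leaving out each library. By the paper same-numbered libraries share dogs. Their deviations from group means had a correlation of 0.782 over genes (genes are no replicates). The pools also differ in depth, so this correlation cannot show whether the dogs were shared.

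Named genes were the 10 members, fixed partners and up to 4 called genes of smallest adjusted p per myeloid or pathway list (2 in other lists). ITGAM, PTPRC, TGFBI, TLR4, ZEB2, DLA-DQB1, TCF4, OLR1, EPCAM, KRT19, TYROBP, LCN2, KIT, POU2AF1, PPARG and PLK1 were named after their values were seen. The members and lists were chosen with earlier results of these data known. Neighboring genes come from RefSeq (UU_Cfam_GSD_1.0).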

Additional observations from a re-analysis of the deposited data

Results flagged for a closer look

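MSR1 and C1QB went in opposite directions in the pools, and this difference between pools was not tested. The log2 ratio of carcinoma to control for MSR1 was 0.19 in pool 1 (95% counting interval 0.092 to 0.28) and −0.16 in pool 2 (−0.48 to 0.16). For C1QB it was 0.088 in pool 1 (−0.073 to 0.25) and −0.20 in pool 2 (−0.53 to 0.13). Of all genes, 15.5% went in opposite directions in the pools.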

How the results depend on the processing

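Over the settings that kept all libraries (DESeq2 with and without the replicate block, its size factors, filters, the replicate block in edgeR, and removal of muscle and milk genes) each of the 10 genes kept its direction and its call, and 3 were called each time, also with the replicate block. Leaving out 1 library moved the number called to between 1 and 3. It was 1, ITGAX, without C1 or without T2, and the lone library left in a group was then assumed to vary like the other group. The number of all genes called was 763 to 1046 without a library, 1206 by DESeq2 and 1570 with the replicate block, against 1112.

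The direction of genes near 0 turned with the library left out. Log2 fold changes without a library ranged from −0.33 to 0.29 for MSR1, −0.50 to 0.25 for CSF1R, −1.27 to 0.37 for C1QA, −0.67 to 0.57 for C1QB, −0.29 to 0.85 for C1QC and −0.27 to 0.22 for CD86. They ranged from −0.34 to 0.28 for CSF1, −0.48 to 0.065 for SPI1 and −0.082 to 0.30 for CD80. None of these genes was called in any of the fits.

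Relative to PTPRC alone, a reference chosen after seeing the data, CD163 differed by 0.26 and ITGAX by −0.51. PTPRC itself had a log2 fold change of −0.90. Among the 10 genes depth was lowest for VSIG4 and ITGAX, with 53 and 69 counts in T2.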

Other observations

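In the edgeR fit with the pool as a replicate block, C1QA (log2 fold change −0.44, edgeR adjusted p = 7.79e-04) and C1QC (0.28, edgeR adjusted p = 0.0163) passed the adjusted p with opposite directions, each with the same direction in both pools and under the fold asked for a call. With the same block DESeq2 gave adjusted p-values of 0.0794 for C1QA and 0.259 for C1QC, so passing depends on the tool. The blocked fit has 1 residual degree of freedom.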
